A study of Caenorhabditis elegans with 2 samples.

Results

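The regions described here are LIN-14 binding regions that lay inside an intron close to the start of a protein-coding gene, but outside the promoter window of every annotated transcript. A region qualified when its summit, the point of strongest enrichment, was in an intron and in no exon of a protein-coding gene and under 3 kb from that gene's outermost 5′ end. It also had to lie outside the stretch from 1000 bp upstream to 200 bp downstream of each protein-coding transcript's 5′ end. Of 11115 LIN-14 regions, 1120 qualified, or 10.1%, and they fell in 912 genes. The choice used positions, and scores only to pick the summit where overlapping peaks were merged.

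The data came from chromatin immunoprecipitation sequencing (ChIP-seq) of whole Caenorhabditis elegans L1 larvae aged 6 hours, recorded as a pool of males and females. The deposited results are lists of peaks. The worms were of strain OP768, which is mutant for unc-119 through the allele tm4063 and carries the transgene wgls768, holding lin-14::TY1::EGFP::3xFLAG and an unc-119(+) rescuing copy. The labels describe the larvae as starved after bleaching for synchronisation, without stating whether they were fed afterwards. Sonicated chromatin was precipitated with an antibody against GFP (the antibody field of the labels reads lin-14), in 2 biological replicates of 1 group with no second condition. A control experiment named in the labels was not analysed here. Where native and transgene copies of lin-14 and unc-119 share their sequence, regions cannot be assigned to one copy. Peaks come from whole animals, so the cells in which LIN-14 was bound cannot be told apart.

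LIN-14 is a nuclear DNA-binding protein that specifies the cell fates of the first larval stage, and it is the classic target of the lin-4 microRNA, which lowers its level as that stage ends. Introns are removed from the transcript by splicing, and in nematodes most are very short, while the rarer long ones, often the first of a gene, can hold enhancers, alternative promoters and small RNA genes. A peak in such an intron marks enrichment of the tagged protein and leaves unknown whether the host gene responds to it.

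The sequences below are the 151 bp centred on the summits of 9 of the strongest members. They are shown because they hold, or lack, GAGAGA and CTGCGTC, which are counted further on. They are read in the direction of transcription of the host gene, from the RefSeq copy of WBcel235, the assembly also called ce11. Capitals mark GAGAGA or its reverse complement TCTCTC, and CTGCGTC or its reverse complement GACGCAG. Other short sequences counted further on are not marked, though some of these windows hold them. The aak-2 window is chrX:16796957-16797107 on the plus strand, the lag-1 window chrIV:6097175-6097325 plus, the W06H8.6 window chrV:6224615-6224765 minus and the daf-14 window chrIV:10252419-10252569 plus. The epg-9 window is chrIV:2602086-2602236 plus, the lin-14 window chrX:11467421-11467571 plus, the mnk-1 window chrII:10552078-10552228 minus, the spop-1 window chrIII:10096641-10096791 minus and the daf-12 window chrX:10637573-10637723 plus.
aak-2: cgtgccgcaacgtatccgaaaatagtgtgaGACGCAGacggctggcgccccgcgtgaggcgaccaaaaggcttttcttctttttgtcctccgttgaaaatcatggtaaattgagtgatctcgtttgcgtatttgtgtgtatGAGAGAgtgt
lag-1: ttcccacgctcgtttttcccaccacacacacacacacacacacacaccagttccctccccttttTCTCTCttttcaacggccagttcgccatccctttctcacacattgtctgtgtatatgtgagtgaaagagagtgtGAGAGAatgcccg
W06H8.6: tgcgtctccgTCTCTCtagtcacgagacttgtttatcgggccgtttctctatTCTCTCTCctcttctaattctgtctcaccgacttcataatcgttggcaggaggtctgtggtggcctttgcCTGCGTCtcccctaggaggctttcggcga
daf-14: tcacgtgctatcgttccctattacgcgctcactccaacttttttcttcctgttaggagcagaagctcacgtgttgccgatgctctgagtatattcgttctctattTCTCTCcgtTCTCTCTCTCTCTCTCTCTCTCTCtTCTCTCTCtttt
epg-9: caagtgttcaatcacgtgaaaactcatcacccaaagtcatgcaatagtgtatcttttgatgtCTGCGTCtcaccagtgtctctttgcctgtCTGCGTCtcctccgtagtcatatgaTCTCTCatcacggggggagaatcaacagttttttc
lin-14: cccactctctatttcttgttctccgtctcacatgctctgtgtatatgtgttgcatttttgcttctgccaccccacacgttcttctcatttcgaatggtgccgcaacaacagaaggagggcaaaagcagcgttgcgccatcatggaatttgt
mnk-1: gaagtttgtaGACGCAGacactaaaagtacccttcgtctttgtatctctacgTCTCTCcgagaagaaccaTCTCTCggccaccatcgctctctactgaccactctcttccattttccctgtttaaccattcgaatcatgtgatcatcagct
spop-1: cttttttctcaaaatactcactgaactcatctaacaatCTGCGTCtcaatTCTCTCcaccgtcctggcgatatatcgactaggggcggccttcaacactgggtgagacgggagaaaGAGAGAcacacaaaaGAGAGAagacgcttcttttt
daf-12: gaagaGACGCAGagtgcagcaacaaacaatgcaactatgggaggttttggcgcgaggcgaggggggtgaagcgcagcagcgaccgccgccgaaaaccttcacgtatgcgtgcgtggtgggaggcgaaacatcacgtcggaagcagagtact
Counting overlapping copies, GAGAGA on either strand occurred 13 times in the daf-14 window, most of them in 1 long CT run, 3 times each in the W06H8.6 and spop-1 windows, and not at all in those of lin-14 and daf-12. CTGCGTC occurred 2 times in the epg-9 window and 1 time each in those of aak-2, W06H8.6, mnk-1, spop-1 and daf-12. The lin-14 window held neither.

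The 20 strongest members are described in order of their scores, apart from those of the developmental timing genes. Scores are those of the authors' peak caller, on a scale that the files do not define, and the replicate scores come from separate lists on a lower scale. The region of aak-2, a catalytic subunit of the AMP-activated kinase, scored 4728, with 2637 in replicate 1 and 2096 in replicate 2, and lay 945 bp from the 5′ end in a first intron of 3475 bp. The region of lag-1, the DNA-binding effector of Notch signalling, scored 4525 (2756 and 1810 in replicates 1 and 2) and lay 1843 bp into the gene. That of W06H8.6, a gene given no name in the annotation, scored 4473 (2357 and 2157). Its summit was in the fifth intron, only 542 bp long, and the region, 885 bp wide, reached beyond that intron. By score these regions ranked 31, 41 and 45 among all regions of the genome.

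The members next in score lay in genes of varied function. The region of daf-14, a SMAD of the pathway that controls entry into the dauer larva, scored 4157 (2215 and 1951 in replicates 1 and 2), 1867 bp from the 5′ end. That of nhr-19, a nuclear hormone receptor, scored 4006 (2262 and 1751), and that of nova-1, an RNA-binding splicing regulator, scored 3904 (2254 and 1648). The region of epg-9, an autophagy gene, scored 3867 (2020 and 1872). Each of these was higher in replicate 1, which is also the list with the higher scores over all regions, by 0.35 on the log2 scale at the median. Further down were mef-2 (3641), a MADS-box transcription factor, ldb-1 (3480), a cofactor of LIM-domain proteins, and T28F4.1 (3479). sma-9, a zinc finger cofactor of the pathway that sets body size, scored 3381 (1749 and 1667), mnk-1, a kinase acting on translation factors, 3356 (1799 and 1570), and K10C3.4, 3315. spop-1, which recruits substrates to a ubiquitin ligase, scored 3172 (1684 and 1487). Y41G9A.17 scored 2751, nhr-3, another nuclear receptor, 2676, and let-526, a subunit of a chromatin remodelling complex, 2340. With lin-14, daf-12 and kin-20, described next, these are the 20 strongest members, of which 13 were in the first intron of their host.

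Among the developmental timing genes, lin-14 itself held a member of score 3483 (2027 and 1476 in replicates 1 and 2), 1936 bp from its 5′ end in a first intron of 2818 bp, before the first coding base. That summit lay inside an annotated non-coding RNA gene, T25C12.7. The strongest region in a promoter window of lin-14 scored 2970, below the intronic one, and the gene also held 13 intronic regions at 3 kb or more. daf-12, the nuclear receptor that couples larval progression to the dauer decision, held a member of 2812 (1605 and 1218), 1740 bp from its 5′ end in a first intron of 8353 bp, with no promoter region and 5 intronic regions farther in. kin-20, a casein kinase of the timing pathway, held a member of 2447 (1330 and 1116) at 2256 bp and another of 1796 at 830 bp, both in its first intron. The member of blmp-1, a zinc finger transcription factor, scored only 221 (155 and 67.6), with its summit 401 bp from the 5′ end in an intron of 333 bp. That region was 410 bp wide, wider than the intron. lin-42, lin-28, hbl-1 and lin-29 held none, although each has intron sequence that meets the rule, and for hbl-1 that is only 73 bp. lin-42 did hold 4 intronic regions at 3 kb or more and lin-29 held 1, while lin-28 had 2 regions in promoter windows. For hbl-1 there was no region of either kind. unc-119, whose mutation the transgene rescues, held 2 members in its first intron of 3747 bp, of 1027 at 2740 bp and 730 at 728 bp.

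**Figure D1:**
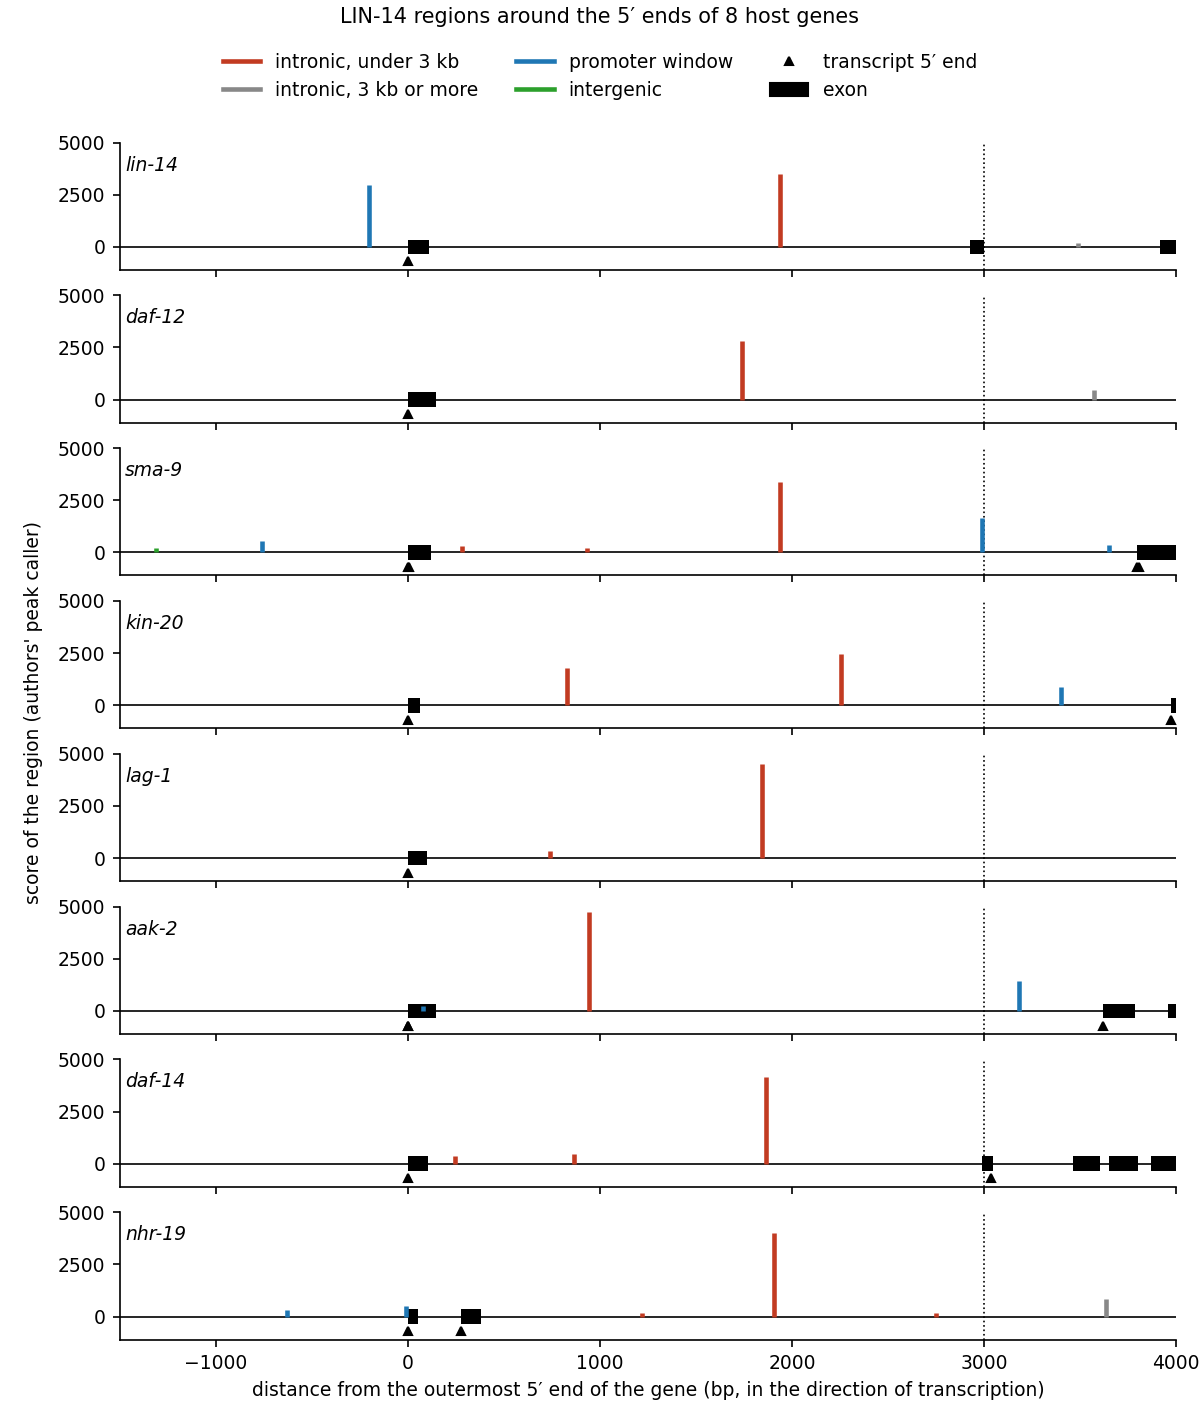
Regions around the 5′ ends of 8 host genes, with distance from the outermost 5′ end in bp on the horizontal axis and the score of each region on the vertical axis. Black boxes are exons, triangles annotated transcript 5′ ends, and the dotted line the limit of 3000 bp. In lin-14 an intronic region of 3483 stands beside a promoter region of 2970, while daf-12, lag-1 and daf-14 have no region in a promoter window.

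As a class, the members were weaker than regions in promoter windows. Their scores ran from 148 to 4728 with a median of 308 (95% interval of the median 295 to 322, quartiles 215 and 509). The median was 445 (429 to 459) for the 4498 regions in promoter windows, 335 (325 to 347) for 3795 intergenic regions and 328 (309 to 341) for 1447 intronic regions at 3 kb or more. The interval of the members thus overlapped that of the deeper intronic regions and lay below those of promoter and intergenic regions. Of the members, 55, or 4.91% (3.72 to 6.34%), were in the strongest 10% of all regions, against 6.91% of the deeper intronic and 13.9% of the promoter regions. The weaker 50% of all regions contained 669 members, or 59.7%. Regions of 1 pooled experiment are not replicates, so these groups are described and not tested, and every interval covers counting only and treats regions as independent.

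The members were nearly all found in both replicates. A summit within 100 bp was present in both replicate lists for 1093 of 1120 members, or 97.6% (exact 95% interval 96.5 to 98.4%), beside 97 percent of all regions, so the share was near the background. Since the list requires agreement of the replicates, a high share is built into it. 14 members had such a match in replicate 1 only and 13 in replicate 2 only. Over the 1093 members with both scores the replicates correlated with a Spearman's rho of 0.88 and a Pearson's r of 0.92 on the log2 scale, a description across regions that share the same libraries. After the median shift between the lists was removed, 22 members differed by more than 2-fold, 13 of them higher in replicate 1. The largest differences were at Y42H9AR.5, with 149 in replicate 1 against 29.1 in replicate 2, and C08G9.1, with 174 against 45.5. Next were act-4, an actin gene, with 190 against 50.8, Y41E3.7 with 119.3 against 35.4, and fox-1, an RNA-binding protein gene, with 103.3 against 31.1. All 5 were weak members higher in replicate 1, with scores between 148 and 251.

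**Figure D2:**
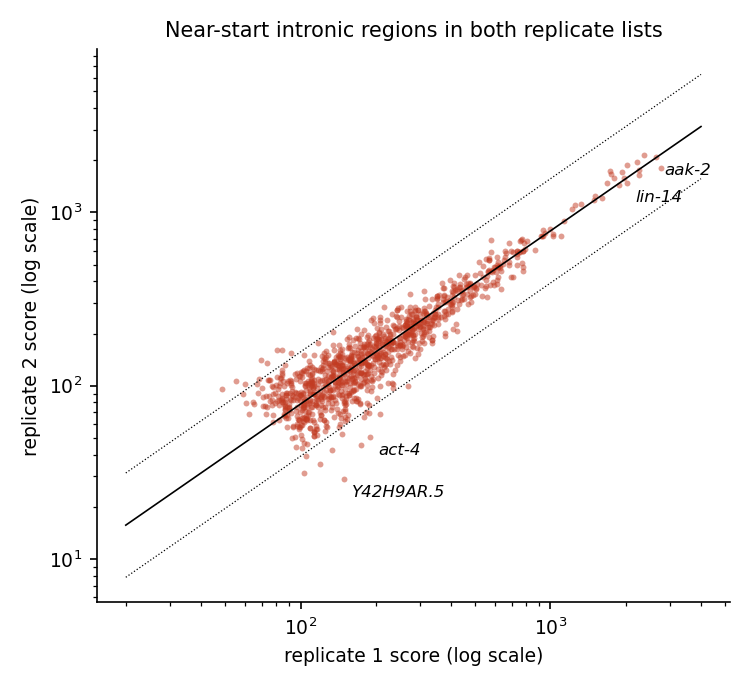
Score in replicate 1 against score in replicate 2 for the 1093 members found in both lists, on log scales. The solid line is the median shift between the lists over all regions, and the dotted lines are 2-fold to either side, with 22 members outside them.

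The introns that held members were long. A gene's introns were taken as the gaps left when the exons of all its transcripts are merged. The median length of a member's intron was 1895 bp (quartiles 790 and 3686, range 46 to 17091), while the 61686 introns with any sequence that met the rule had a median of 68 bp (quartiles 48 and 341). Long introns offer more sequence, and the median base of qualifying sequence lay in an intron of 681 bp. Introns of 1 kb or more held 780 members, or 69.6%, but 35.4% of the qualifying sequence.

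The share of introns that held a member rose with each class of length. It was 0.0821% (0.0565 to 0.115%) for introns under 200 bp, 1.33% (1.12 to 1.57%) for 200 to 499 bp and 2.55% (2.18 to 2.96%) for 500 to 999 bp. It was 7.95% (6.96 to 9.03%) for 1000 to 1999 bp, 23.7% (21.3 to 26.2%) for 2000 to 4999 bp and 35.8% (30.8 to 41.14%) for 5000 bp or more. Per 100 kb of qualifying sequence, the count in these classes was 1.32, 4.49, 4.24, 9.27, 19.2 and 23.4, so the longer introns held more regions per base as well, except between 200 to 499 bp and 500 to 999 bp. The class from 2000 to 4999 bp had an interval of 17.3 to 21.3 and the longest class one of 20.1 to 27.1, which overlap. The median score stayed between 250 and 328 in all 6 classes, and score and intron length had a Spearman's rho of 0.08 over the 1120 members.

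Close to the start of genes, LIN-14 regions were sparser than deep in introns, and intron length moved with that difference. There were 7.60 members per 100 kb of qualifying sequence (exact Poisson 95% interval 7.16 to 8.06), against 11.6 (11.04 to 12.2) in intron sequence at 3 kb or more, 17.2 in promoter windows, 15.1 between genes and 1.17 in exons. Within introns of 2000 to 4999 bp the values were 19.2 near the start and 17.5 (15.9 to 19.2) farther in, and within introns of 5000 bp or more they were 23.4 and 24.3 (22.5 to 26.3). In introns of 1000 to 1999 bp the near value, 9.27 (8.14 to 10.5), was above the deep one, 6.03 (5.14 to 7.02). In none of the 6 length classes was the near value below the deep one with intervals that separate.

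Distance from the 5′ end gave a gradient in the first kilobase. Members lay between 201 and 2994 bp from the outermost 5′ end, with a median of 1490 bp. From 200 to 499 bp there were 3.89 (3.11 to 4.81) per 100 kb of qualifying sequence, from 500 to 999 bp 6.16 (5.38 to 7.03) and from 1000 to 1499 bp 8.77 (7.74 to 9.91). From there to 3 kb the values stayed between 8.65 and 10.3, with overlapping intervals. Within introns of 2 kb or more, a split added after the data were seen, the lowest value was again nearest the start, with 11.5 (7.28 to 17.2) per 100 kb from 200 to 499 bp, against 24.0 (19.9 to 28.7) from 1000 to 1499 bp and 20.02 (16.2 to 24.5) from 2500 to 2999 bp. Scores did not follow distance, with a Spearman's rho of 0.02 over 1120 members.

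The limit of 3 kb cut through a continuous set of regions. Just inside it were members of C08G9.1 at 2994 bp with a score of 317, acox-1.3 at 2993 bp with 151 and Y105C5A.1 at 2989 bp with 1050. Just outside were intronic regions of daf-5 at 3005 bp with 771, lgc-53 at 3007 bp with 266 and tlk-1 at 3009 bp with 364. The acox-1.3 region had a matching summit within 100 bp in replicate 1 alone.

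**Figure D3:**
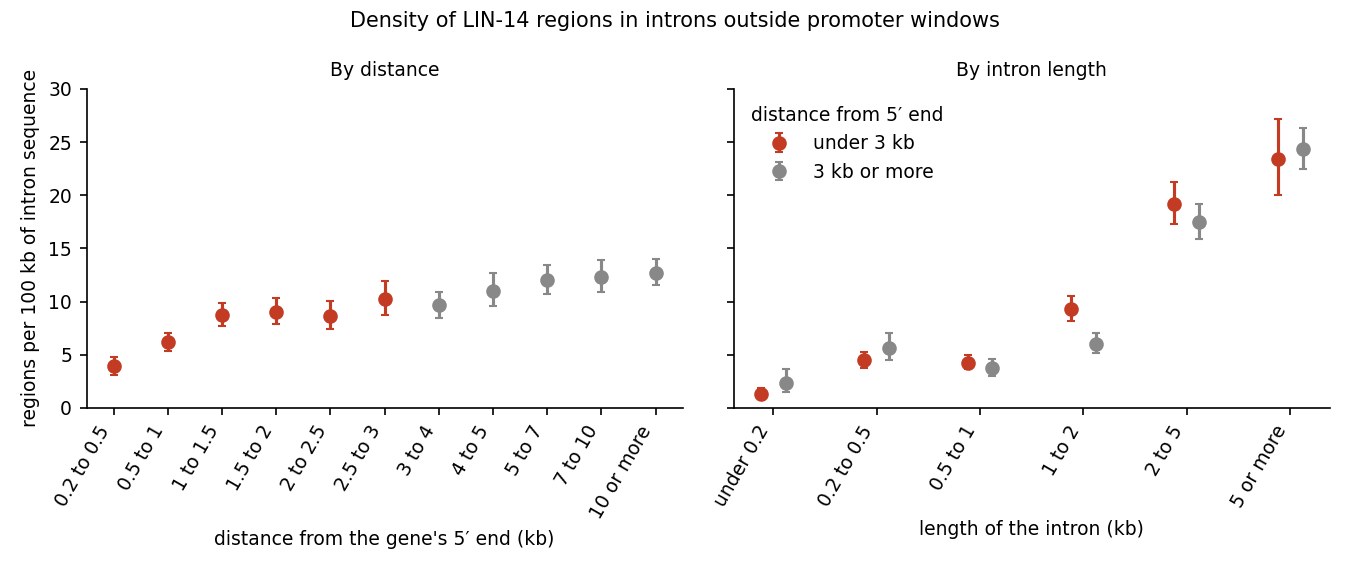
LIN-14 regions per 100 kb of intron sequence outside promoter windows, by distance from the gene's 5′ end (left) and by intron length (right), red under 3 kb and grey at 3 kb or more. Bars are exact Poisson 95% intervals, which cover counting only. The density rises from 3.89 at 200 to 499 bp to 8.77 at 1000 to 1499 bp, and from 1.32 in introns under 200 bp to 23.4 in those of 5000 bp or more.

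First introns held the largest part of the members. There were 526 in the first intron, or 47.0% (44.01 to 49.9%), while first introns made up 30.6% of the qualifying sequence. The density per 100 kb was 11.6 (10.6 to 12.6) in first, 7.54 (6.65 to 8.51) in the second, 5.00 (4.16 to 5.96) in the third and 4.78 (4.15 to 5.47) in later introns. The introns of members also shortened along the gene, with a median of 2898 bp for first and 839 bp for those after the third. Among introns of 2000 to 4999 bp, first introns had 21.8 (19.1 to 24.8) and later ones 15.7 (13.1 to 18.6) per 100 kb, intervals that do not overlap. Among those of 5000 bp or more the values were 23.3 and 23.8, and in those of 1000 to 1999 bp 10.4 and 8.62, with overlapping intervals in both classes.

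Within their introns, the summits lay away from exons. The median distance from a member's summit to the nearer exon edge was 441 bp. Density rose from 1.35 (1.01 to 1.77) per 100 kb within 50 bp of an exon to 11.9 (10.3 to 13.6) at 401 to 800 bp and 24.0 (21.6 to 26.5) beyond 800 bp. In introns of 2 kb or more the rise was less even. The density there was 4.39 (0.532 to 15.9) per 100 kb within 50 bp of an exon, from 2 members, and 1.93 (0.0488 to 10.7) at 51 to 100 bp, from 1 member. It was 18.2 (11.8 to 26.9) at 101 to 200 bp, 14.9 (10.9 to 19.9) at 201 to 400 bp, 16.9 (13.8 to 20.4) at 401 to 800 bp and 24.2 (21.8 to 26.9) beyond 800 bp. The first 50% of the intron held 748 members, or 66.8%, against 55.9% of the qualifying sequence, but in introns of 2 kb or more these shares were 80.1% and 78.6%. The position along the intron was thus close to that of the available sequence once long introns were taken alone.

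The members in the longest introns were not among the strongest. The first intron of T28B11.1, 17091 bp long, held a member of 542 at 2837 bp, beside a promoter region of 5426. That of crh-1, the CREB transcription factor, 16856 bp long, held members of 418 and 167. That of ZK1073.2 (16515 bp) held one of 281 and that of fkh-7, a forkhead transcription factor (16465 bp), one of 799. At the other end, named after their values were seen, F25E2.3 had a member of 299 in an intron of 46 bp, syd-2, a presynaptic scaffold gene, one of 238 in an intron of 49 bp, and dpyd-1 one of 294 in an intron of 63 bp. These regions were 118, 122 and 102 bp wide, wider than their introns, so they also covered neighbouring exon sequence. The median width over all members was 347 bp.

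A later 5′ end of the same gene often lay downstream. For 491 members, or 43.8%, the host had another annotated 5′ end beyond the summit, against 17.2% of the qualifying sequence. The median distance to it was 2680 bp, and 175 of the 491 had it within 2 kb. The share in introns of 2 kb or more was 74.0% of members and 59.0% of sequence. Before the first coding base of the host lay 127 members, or 11.3%, against 4.14% of the sequence, and in introns of 2 kb or more 22.1% against 18.7%. Both differences were smaller in long introns than over all.

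Non-coding genes other than piRNA genes were close to 242 members, or 21.6%, at 300 bp or less, against 5.21% of the qualifying sequence. The nearest such gene was annotated simply as ncRNA for 202 of them, as a small nucleolar RNA, which guides RNA modification, for 13, as a tRNA for 13, and as an snRNA for 5. In introns of 2 kb or more the shares were 18.4% and 9.48%. Among the 20 strongest members, those of lin-14, kin-20 and K10C3.4 lay inside an ncRNA gene and that of let-526 inside an antisense RNA gene. Those of T28F4.1, W06H8.6, aak-2 and ldb-1 were 23, 56, 83 and 276 bp from an ncRNA gene.

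Host genes often had a second LIN-14 region at their promoter. Of the 912 hosts, 563, or 61.7% (58.5 to 64.9%), also had a region in a promoter window, beside 23 percent of all 17291 genes with qualifying intron sequence and 20.8% (20.2 to 21.5%) of the 16379 that were not hosts. Among genes with 2000 bp or more of qualifying sequence the shares were 61.96% (57.2 to 66.5%) of hosts and 18.4% (16.4 to 20.5%) of other genes, and among those with under 500 bp 63.0% (42.4 to 80.6%) of 27 hosts and 20.7% of other genes. The difference was therefore present at each amount of qualifying sequence. A region in the window of any annotated 5′ end of the gene was counted. Hosts and other genes were not matched for the number of such ends, and its part in the difference was not tested. The stronger region was the intronic one in 223 of the 563 genes, or 39.6%, and the median difference, intronic minus promoter, was -0.37 on the log2 scale. For aak-2 the values were 4728 in the intron and 1435 at the promoter of a shorter transcript, and for W06H8.6 they were 4473 and 3837. For mnk-1 they were 3356 and 1959.

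Most hosts held a single member. There were 730 with 1 member, 152 with 2, 29 with 3 and 1 with 4, and in 132 of the 182 genes with more than 1 all were in the same intron. Neighbouring members of a gene were a median of 932 bp apart over 213 pairs (quartiles 700 and 1202). C07A9.9 held 4, with scores of 311, 279, 1270 and 939 from 778 to 2913 bp. In several genes with 3 members, 1 was far stronger than the others. In daf-14 they scored 378 at 247 bp, 488 at 867 bp and 4157 at 1867 bp. In nhr-19 they scored 169, 4006 and 161, and in sma-9 296, 192 and 3381. In fasn-1, the fatty acid synthase, the first of 3, at 456 bp, was the strongest with 1311, and in hda-4, a class II histone deacetylase, the last with 867 at 2880 bp. In others the members were alike. The Eph receptor gene vab-1 had 519, 337 and 336, the synaptic kinase gene sad-1 had 330, 295 and 183, and the polarity gene par-3 had 375, 214 and 237. The globin gene glb-25 rose along its intron from 277 to 570 and 1030, and the synaptotagmin gene snt-4 had 205, 888 and 176.

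The X chromosome carried 317 members, or 28.3% (25.7 to 31.0%), the largest number of any chromosome. Per 100 kb of qualifying sequence it had 12.3 (10.99 to 13.7), against 6.60 (6.15 to 7.07) on the autosomes together, where the chromosomes ran from 5.34 on V to 8.03 on III. The X was also denser in deeper intronic regions, with 17.2 (15.5 to 19.2) against 10.6, and in all regions, with 16.1 against 10.01 per 100 kb of chromosome. In introns of 1 kb or more, the members numbered 20.2 (17.4 to 23.3) on the X and 13.7 (12.6 to 14.8) on autosomes per 100 kb. Scores did not go the same way, since the median was 287 on the X and 316 on the autosomes.

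By function, hosts were described through 14 gene lists, beside the 5.27 percent of all 17291 genes with qualifying intron sequence that held a member. The lists overlap one another, they were drawn up with earlier results of these data known, and all but the RNA-binding and ribosomal lists carry more such sequence per gene than the median of 643 bp over all genes. Among 28 heterochronic genes, which time larval events, 13 were hosts, or 46.4% (27.5 to 66.1%), with a median member score of 701 and 40.6 members per 100 kb, against 7.54 for all genes on the same count. Besides lin-14, daf-12 and kin-20 the strongest was daf-16, the FOXO factor of insulin signalling, with 1159 (578 and 593 in replicates 1 and 2). The next were ain-2, which acts in microRNA silencing, with 1082, and nhr-23, a nuclear receptor of the molting cycle, with 974, both named beyond the 4 strongest of the list.

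Neuronal and muscle lists also had shares above that of all genes. Among 48 synaptic vesicle and release genes 18 were hosts, or 37.5% (24.0 to 52.6%), the strongest being syd-1, which organises presynaptic sites, with 1403 (792 and 616), the kinesin light chain klc-2 with 1184, unc-14 with 860 and kin-2, a regulatory subunit of protein kinase A, with 854. Among 55 axon guidance and outgrowth genes 18 were hosts, or 32.7% (20.7 to 46.7%), led by dlk-1, a kinase needed for axon regeneration, with 1720 (929 and 787), unc-119 with 1027, the Trio-like exchange factor unc-73 with 956 and unc-14. Among 55 body wall muscle genes 14 were hosts, or 25.5% (14.67 to 39%), led by the tropomyosin gene lev-11 with 1715 (951 and 764), the twitchin gene unc-22 with 1028, the myosin gene myo-3 with 760 and hlh-1, the MyoD factor, with 689. Of 51 potassium and calcium channel genes 12 were hosts, or 23.5% (12.8 to 37.5%), with the sodium leak channel nca-2 at 810, the potassium channel unc-58 at 531 and the L-type calcium channel egl-19 at 481. Members per 100 kb were 30.1, 27.3, 24.8 and 15.6 in these lists.

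The lists of transcription factors, of structural genes, and of the TGF-beta, insulin and Wnt pathways ran from 15.2 to 24.6%. Of 138 transcription factor genes on the list 34 were hosts, or 24.6% (17.7 to 32.7%), led by mef-2, sma-9, egl-27 with 1079 and fkh-7 with 799. Of 52 basement membrane and adhesion genes 10 were hosts, or 19.2%, led by mup-4, which anchors muscle through the epidermis, with 1639 (913 and 735), and the alpha spectrin gene spc-1 with 1083. Of 78 GTPase regulator and cytoskeleton genes 14 were hosts, or 17.9%, with spc-1, unc-119, unc-73 and the ankyrin gene unc-44, at 790, the strongest. In the TGF-beta and insulin list 7 of 46 genes were hosts, or 15.2% (6.34 to 28.9%), and these included aak-2, daf-14, sma-9 and daf-5, a Ski-type cofactor with 1336. In the Wnt list 5 of 31 genes were hosts, or 16.1% (5.45 to 33.7%), with weak members such as lin-18, a Ryk-type receptor, at 254 and the Frizzled gene mig-1 at 209. Members per 100 kb were 21.9, 16.3, 15.8, 19.2 and 12.1 in these lists, in the order given.

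In the remaining lists the interval of the share included the value over all genes. Of 57 RNA-binding and splicing regulator genes 6 were hosts, or 10.5% (3.96 to 21.5%), led by unc-75 at 354 and etr-1 at 270. In the EGF-Ras, FGF and Notch list 4 of 42 were hosts, or 9.52% (2.66 to 22.6%), which were lag-1, ksr-1 with 474, the ERK kinase mpk-1 with 319 and the Notch receptor lin-12 with 292. Of 82 chromatin regulator genes 4 were hosts, or 4.88% (1.34 to 12.02%), which were egl-27, hda-4, set-18 with 552 and lin-9 with 284. Members per 100 kb were 14.98, 7.69 and 9.95 in these lists, beside 7.54 for all genes. These values rest on only 7, 5 and 8 members and carry no interval, and 7.69 is near the value of all genes. None of 35 cytosolic ribosomal protein genes was a host, which allows a share of up to 10%. Their introns are short, with a median of 55 bp of qualifying sequence per gene and 3.96 kb in all. The median qualifying sequence per gene was 1253 bp in the heterochronic, 1740 bp in the axon guidance and 811 bp in the chromatin list.

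**Figure D4:**
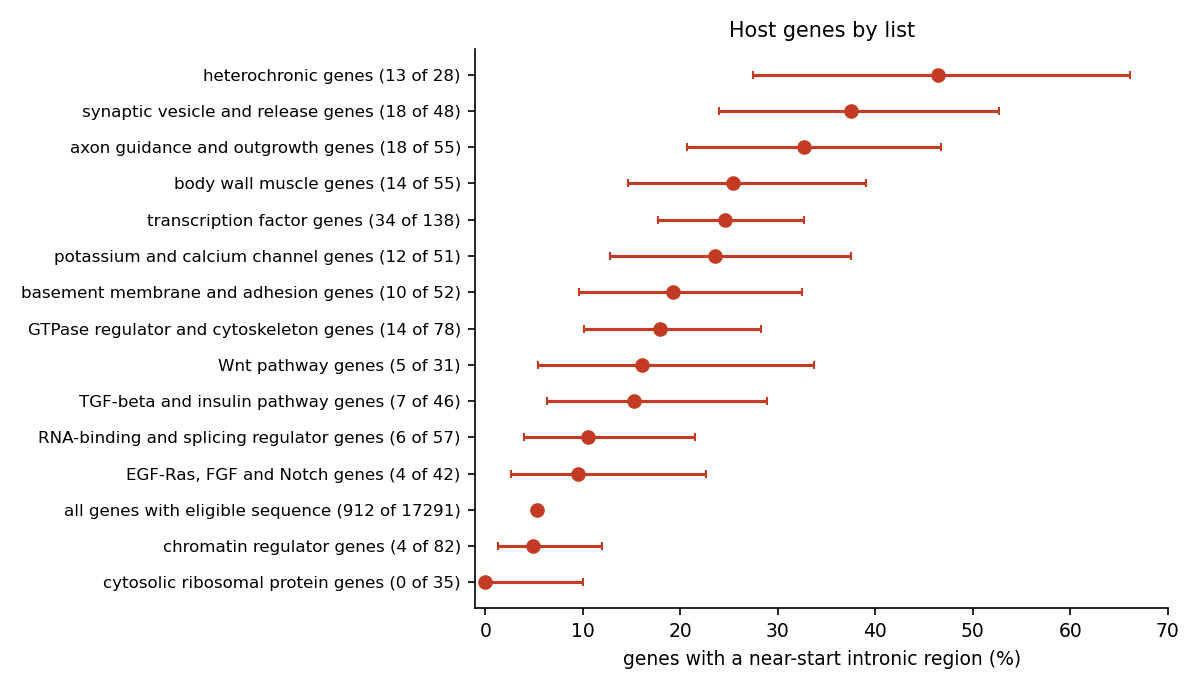
Percentage of genes with a near-start intronic LIN-14 region in each of 14 lists and over all genes with qualifying intron sequence, with host genes and genes with such sequence in brackets. Bars are exact binomial 95% intervals. Heterochronic genes stand at 46.4% and all genes at 5.27 percent.

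GA repeats were more frequent at the summits of the members than beside them. GAGAGA, on either strand within 50 bp of the summit, occurred in 281 members, or 25.09% (22.6 to 27.7%), beside 26.8 percent of all regions, so the members were near the background of LIN-14 regions as a whole. Windows of the same size centred 300 bp to the left and to the right of the same summits held it in 5.98% of cases on either side. Unlike the summits, these flank windows were not required to lie in introns, so some cover exon edges or exon sequence. The stronger members held it more often, with 35.7% (30.1 to 41.6%) in the strongest 280 by score, 27.9% in the next 280, 18.9% in the 280 after those and 17.9% (13.6 to 22.9%) in the weakest 280. Over all 2080 6-mers merged with their reverse complements, GAGAGA had the largest excess over the flanks, followed by AGAGAG, which overlaps it.

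Other short sequences went in both directions. CACGTG, an E-box read the same on both strands, was in 5.18% (3.96 to 6.64%) of members, against 1.16% of left and 1.61% of right flanks and 4.82% of all regions. CTGCGTC, searched after it had been seen in the printed windows, was in 55 members, or 4.91% (3.72 to 6.34%), against 0.446% of left and 0.893% of right flanks, and beside 7.78 percent of all regions and 10.2% of promoter regions. Of these 55, 44 held the longer CTGCGTCTC. In the same order of score it was present in 8.21%, 7.86%, 1.07% and 2.5% of these sets of 280. The printed windows in which it was first seen belong to the strongest set. The share of that set is therefore partly fixed by the choice of the sequence, and these values are not independent support for it. The 4 sequences made of GAAC, then A or G, then C or T were together in 130 members, or 11.6% (9.79 to 13.6%), beside 12.6 percent of all regions and below the 15.98% and 17.1% of the flanks. TTTCAG, as at intron ends, and TATAAA were also rarer at the summits, with 4.46% and 4.38%, than in the flanks, where they were in 16.6 to 17.8% and 11.96 to 13.2%. Summits were intronic by the rule while flanks were not restricted to introns, and the part of this in the flank shares was not tested. TGATAA was in 9.46% of members and in 8.30% and 9.91% of the left and right flanks. For AGATAA these shares were 7.32%, 7.14% and 7.95%, for CAGCTG they were 2.32%, 2.32% and 1.61%, and for TGACTCA 1.25%, 1.16% and 1.43%, so that none of these stood out at the summits. Base composition moved with these counts, since the median GC content was 41.6% at the summits, 34.7% in the flanks and 31.7% over all qualifying sequence, and its part in them was not tested. A match describes these letters and is not shown to be a binding site.

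**Figure D5:**
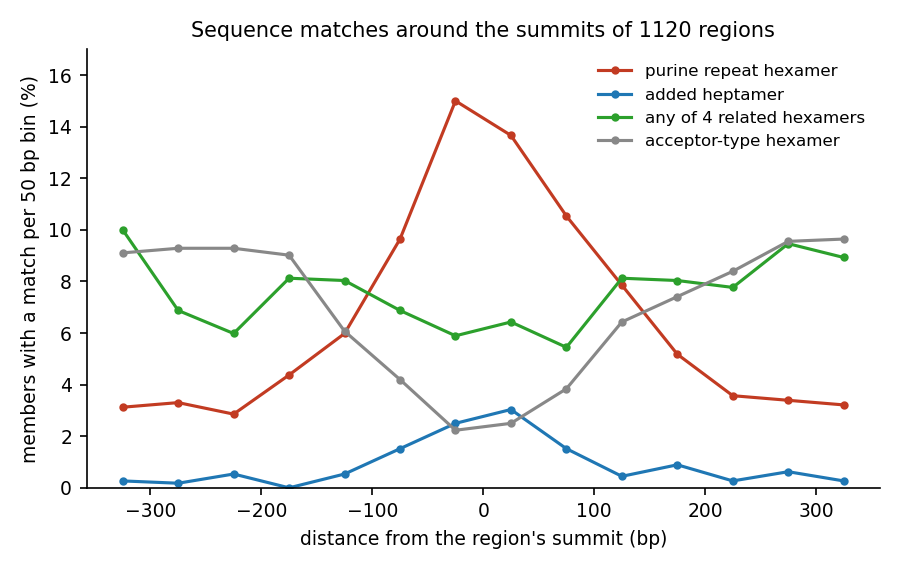
Percentage of the 1120 members with a match to a short sequence in each 50 bp bin, against distance from the summit. The purine repeat is GAGAGA, the added heptamer CTGCGTC, the related hexamers the 4 GAAC sequences and the acceptor-type hexamer TTTCAG, all on both strands. The purine repeat peaks at 15% beside the summit and falls to 3.13% at the edge.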

How the data were processed

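The deposited files were 4 narrowPeak lists on the ce11 build: 1 per replicate (25357 and 27170 peaks), 1 called on both together (24683) and 1 of 11507 peaks thresholded by irreproducible discovery rate (IDR), which was derived from the others, per the README texts that the authors deposited. No header or label names the peak caller, the aligner or the IDR threshold. The score is the strength the authors' peak caller gave each peak, on scales that differ between lists. The lists also hold a −log10 q-value as deposited by the authors, which 83.6% of members had at its ceiling of 4.29 and which was not used. Read depth is unknown, since the lists hold no counts.

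Overlapping IDR-thresholded peaks were merged and given the summit of the highest score. Genes came from Ensembl release 115 (19973 protein-coding) and sequence from RefSeq, both WBcel235. Members merged from more than 1 peak numbered 27, and 5 members had a second host gene. Distances are from the outermost 5′ end, and qualifying sequence is intron sequence that meets the positional rule. Replicate scores are those of the strongest replicate peak with its summit within 100 bp. Intervals of shares are 95% Clopper-Pearson, those of densities exact Poisson, and those of medians from order statistics. With 1 group of 2 replicates no test over samples was possible, and the labels list the replicates as separate biosamples without describing the cultures. The class assignment was checked on simulated data. Tools were Python 3.11.15, numpy 2.4.6, scipy 1.17.1 and matplotlib 3.10.9.

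The members, gene lists and sequences were chosen with earlier results of these data known. Genes named are the 20 members of highest score, those of lin-14, daf-12, lin-42, lin-28, unc-119, hbl-1, lin-29 and blmp-1, genes with 3 or more members, the 5 longest introns, the 3 regions either side of the 3 kb limit, the 5 largest replicate differences and up to 4 hosts per list; others are marked. Alternatives covered the distance limit, the promoter window, merging, the score threshold, single replicates, the matching distance, the intron definition and the sequence window. The sequence CTGCGTC and the alternatives for it and for GAGAGA, as well as the splits by long introns and by amount of qualifying sequence, were added after the data were seen.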

Additional observations from a re-analysis of the deposited data

Results flagged for a closer look

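The pooled list holds signal that the comparisons above did not use. Under the same positional rule it had 2336 regions, of which 1216 were not in the IDR-thresholded list, and 649 of these, or 53.4%, had a summit within 100 bp in both replicate lists. They were singled out because they lie outside the list analysed and yet were found in both replicates. Their scores ran from 30.9 to 147 with a median of 67.1, the 1216 regions were in 1040 genes, and 256 of those genes also held a member. The matched share over all pooled regions outside the IDR-thresholded list is not given here. The 53.4% can therefore not be read as particular to these introns.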

How the results depend on the processing

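Members and host genes stayed within 1.5 times of 1120 and 912 under every alternative except the stronger 50% of regions, which left 451 members in 415 genes, 98.9% matched in both replicates, a median score of 562, a median intron of 2103 bp and 3.06 regions per 100 kb; fewer regions entered by construction. With a limit of 2 kb the median intron was 1670 bp, the first intron share 53.1% and the density 7.03 per 100 kb; with 5 kb these were 2272 bp, 41.7% and 8.20. A promoter window of 2000 to 500 bp gave a first intron share of 42.4% and a density of 8.21, and a window around outermost 5′ ends only gave 1660 bp, 50% and 8.76. From single replicates the matched share ran from 95.1 to 95.2%, and no median score is given, since those lists have another scale. Matching summits within 50 bp gave 86.9%, within 200 bp 98.8%, and any overlap 99.02%. Any GAAC sequence was within 25 bp in 5.09% and within 100 bp in 22.4%, GAGAGA in 13.8% and 37.9%, CTGCGTC in 2.95% and 7.77%. In all, 43 alternative values stayed within their spread or 1.5 times and 28 moved. No paired analysis was possible because there is 1 group. The cause of these shifts was not tested beyond the construction of each alternative. With no read counts, the lists cannot show how far weak regions depend on depth.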
